A study of Mus musculus with 14 samples.

Results

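The genes described here are 10 targets of the transcription factor p53, chosen by name: Cdkn1a, Mdm2, Btg2, Ccng1, Sesn1, Phlda3, Zmat3, Eda2r, Trp53inp1 and Gdf15. These genes and the other lists below were drawn up with earlier results of these data known. Their shares beside those of all genes are descriptive. Each symbol had 1 row in the deposited count tables, which held 55357 genes, and all 10 were among the 12915 genes with enough counts to be tested. The study compared livers of male C57BL/6 mice after injury with livers of control mice. Its 8 model samples came from mice given 10 µg/kg of LPS (lipopolysaccharide, from the outer membrane of bacteria) and 300 mg/kg of D-GalN (D-galactosamine, a sugar toxic to hepatocytes) into the peritoneum, a mouse model of acute liver failure. Its 6 control samples came from mice given saline. Livers were collected 24 h after injection, from mice that were 5 to 6 weeks old before 1 week of acclimatisation. No label states that each sample was a separate animal, so the p-values reflect only how far these samples spread, which may be technical. The RNA came from whole liver, so fewer cells of a type and less RNA per cell cannot be told apart.

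The p53 protein is held at a low level in unstressed cells by Mdm2, which marks it for degradation and is itself a p53 target, so that the pair forms a feedback loop. DNA damage and other stresses free p53, which then binds paired half-sites in DNA and raises genes that stop the cell cycle, repair DNA or bring about cell death. In liver, Cdkn1a (p21) is known as a brake on hepatocyte division after injury. Several p53 targets also answer to other stress factors: Gdf15, for example, is known as a target of the integrated stress response.

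Model libraries held 10329469 to 16639972 reads in genes and control libraries 7914120 to 14463540. Hepatocyte markers, which check the labelled tissue, summed to 112000 to 125000 CPM (read counts scaled to the size of the library) in model and 68100 to 97300 in control. Neutrophil markers were nearly absent from control livers (summed 4.80 to 17.1 CPM, Ly6g at 0 counts in every control) and summed to 1370 to 3040 CPM in model. All 13 tested neutrophil markers were called higher. Of 14 monocyte and macrophage markers, 10 were called higher and 2 lower, and all 6 tested cholangiocyte markers were higher. Stellate cell and fibroblast markers were higher in 7 of 10 cases and lower in 1 (summed 417 to 831 CPM in model, 196 to 249 in control). Of 8 tested lymphocyte markers 5 were higher, and of 10 sinusoidal endothelium markers 4 were higher and 3 lower. Of 14 hepatocyte markers 6 were higher and 0 lower. The shares over all genes tested were 26.6% higher and 21.3% lower. The part of these cells in the changes below was not tested.

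Of the 10 p53 targets, 9 were called, 8 of them higher in model livers and 1 lower at an adjusted p under 0.05 (edgeR's quasi-likelihood test, Benjamini-Hochberg over all genes tested). Among all genes tested, 47.9% were called, 26.6% higher and 21.3% lower. The median log2 fold change was 3.15 over the 10 targets and 0.0099 over all genes. For 5 of the 10 targets the ranges of model and control CPM lay apart, against 23.2% of all genes. The increases ran from about 3-fold in Mdm2 and Zmat3 to 130-fold in Cdkn1a. Sesn1 fell, and Ccng1 was not called. The plot of the 10 genes in each library shows these patterns.

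**Figure D1:**
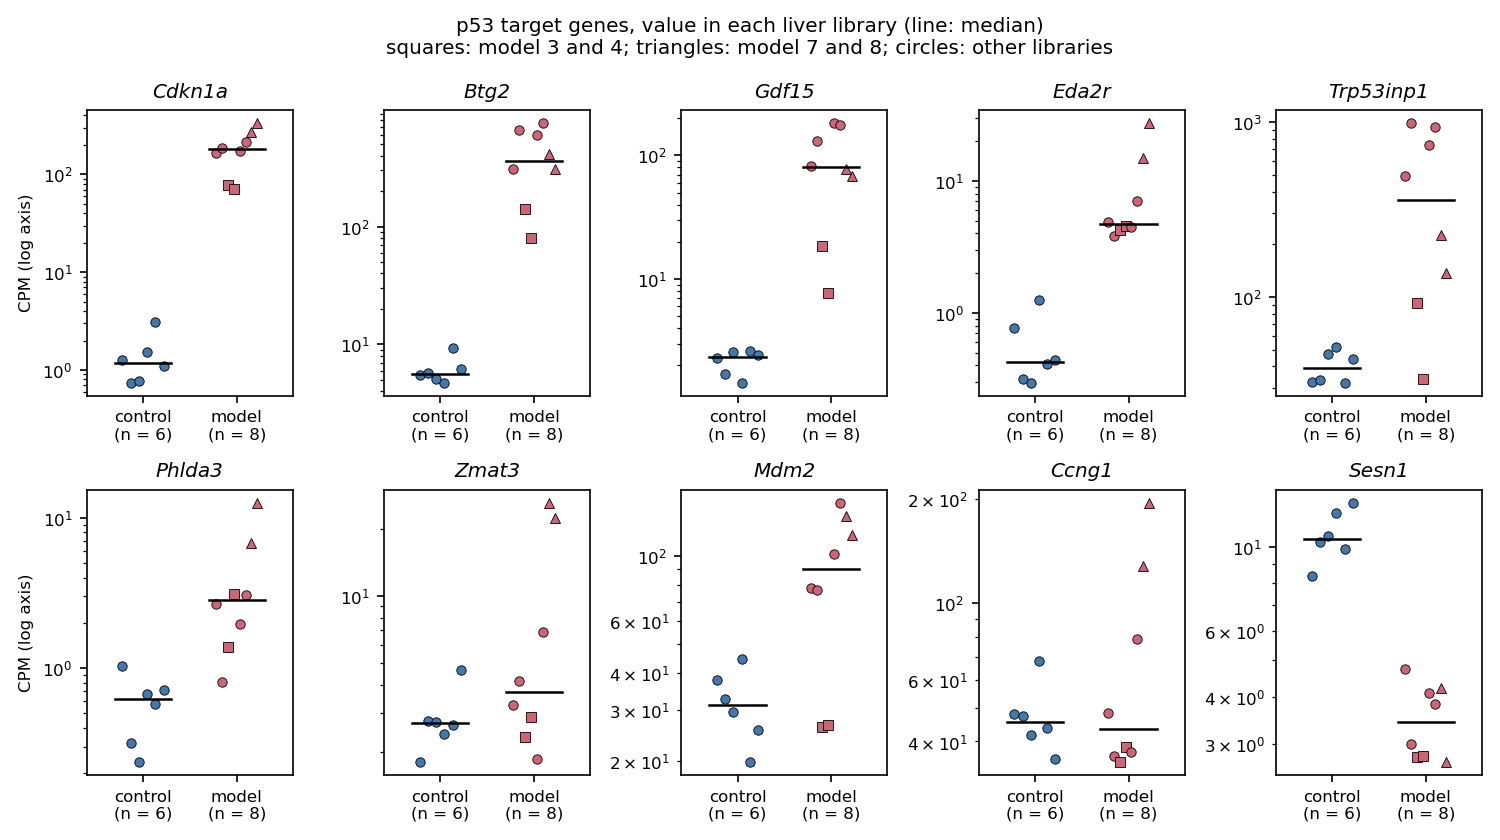
CPM (log axis) of each p53 target in every library, 6 control and 8 model, with the median as a line, ordered by log2 fold change. All 8 model libraries lie above the controls for Cdkn1a, Btg2, Gdf15 and Eda2r and below them for Sesn1, while for Ccng1 and Zmat3 model 7 and model 8 (triangles) lie far above the other model libraries.

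Among the genes that restrain the cell cycle, Cdkn1a, the p21 inhibitor of cyclin-dependent kinases, changed most. In controls the lowest, median and highest values were 0.742, 1.19 and 3.13 CPM, resting on 7 to 38 reads per library. In model livers they were 70.6, 181 and 333 CPM. Every model library was above every control, and the mean rose from 1.43 ± 0.889 (SD, n = 6) to 187 ± 88.8 CPM (SD, n = 8), a log2 fold change of 7.03 (SE 0.49, adjusted p = 3.05e-09 by edgeR). In the GENCODE annotation of another build (GRCm38), 7.7% of its exonic length is shared with AC167363.2 on the other strand, and the strand setting of the counting is not given in the sources used here. Btg2, an antiproliferative cofactor of mRNA deadenylation, was at 4.73, 5.63 and 9.39 CPM in controls and at 79.8, 359 and 752 CPM in model livers (lowest, median and highest). The groups were again fully apart, with a log2 fold change of 6.06 (SE 0.51, adjusted p = 3.29e-08 by edgeR).

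Ccng1, cyclin G1, which recruits a phosphatase to Mdm2, behaved otherwise. Its values were 35.7, 45.4 and 68.2 CPM in controls and 34.9, 43.4 and 195 CPM in model livers. The medians were close, and 5 of 8 model libraries were not above the highest control. Model 6, model 7 and model 8 stood at 79.1, 128 and 195 CPM. The log2 fold change was 0.66 (SE 0.38, adjusted p = 0.169 by edgeR), and it was 0.01 (SE 0.23) without model 7 and model 8.

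Promoter sequence was available from RefSeq (GRCm38.p6, not the build the reads were aligned to) for 8 of the 10 genes, in 11 windows from 250 bases before a start site to 50 after it. The p53 consensus half-site was searched on both strands, as were the AP-1 site TGANTCA and the cAMP response element TGACGTCA. TATAAA was searched on the given strand. The searches did not exclude overlapping motifs. An exact half-site was found in 4 of the 11 windows and in 8.36% of all 32851 windows. A pair of adjacent half-sites, 1 of them exact and the other with at most 1 mismatch outside the C and G of its core, was found in 2 of the 11 windows and in 0.067% of all windows. The pair rule was set after these sequences had been seen. The 2 windows belong to Cdkn1a and Ccng1, the member with the largest increase and the one that was not called, and the Btg2 window is shown with them for its cAMP response element. Each sequence is the stretch of 250 bases before a start site, 5′ to 3′ on the strand of the gene, with the paired p53 half-sites (Cdkn1a, Ccng1) or the TGACGTCA match (Btg2) in capitals.
Cdkn1a, upstream start, chr17:29090729-29090978, plus strand: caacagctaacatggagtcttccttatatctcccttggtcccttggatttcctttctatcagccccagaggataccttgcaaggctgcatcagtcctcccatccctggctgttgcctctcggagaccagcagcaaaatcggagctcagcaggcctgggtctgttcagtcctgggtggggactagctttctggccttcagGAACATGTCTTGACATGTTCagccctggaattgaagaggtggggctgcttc
Ccng1, chr11:40755287-40755536, minus strand: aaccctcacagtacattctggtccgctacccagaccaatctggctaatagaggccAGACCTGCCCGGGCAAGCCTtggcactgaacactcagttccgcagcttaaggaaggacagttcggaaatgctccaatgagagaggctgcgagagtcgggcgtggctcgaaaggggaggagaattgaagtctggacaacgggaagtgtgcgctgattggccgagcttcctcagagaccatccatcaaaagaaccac
Btg2, chr1:134079156-134079405, minus strand: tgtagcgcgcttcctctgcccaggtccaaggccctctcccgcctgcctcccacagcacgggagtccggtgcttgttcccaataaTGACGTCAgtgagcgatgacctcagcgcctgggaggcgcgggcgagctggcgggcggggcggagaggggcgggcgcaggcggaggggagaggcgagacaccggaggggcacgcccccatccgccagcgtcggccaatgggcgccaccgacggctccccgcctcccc
The Cdkn1a pair ends 32 bases before a start site that lies 2790 bases upstream of the other annotated start of the gene. The window at that second start held no p53 half-site. Mdm2 held 1 exact half-site and 1 of the 2 Sesn1 windows held another, so a match stood in front of genes that rose, fell and were not called. TGACGTCA was found in 1 of the 11 windows and in 1.79% of all windows. The AP-1 form was found in 0 of the 11 windows and in 7.81% of all, and TATAAA in 1 and in 8.32%. The NF-kB form was found in 7 of the 11 windows, Btg2 among them, and in 50.8% of all windows. These matches describe the letters only.

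Mdm2, the ubiquitin ligase that degrades p53, rose. Its lowest, median and highest values were 19.9, 31.0 and 44.6 CPM in controls and 26.2, 89.9 and 152 CPM in model livers. Model 3 and model 4, at 26.2 and 26.5 CPM, lay within the control range, and the other 6 lay above it. The log2 fold change was 1.5 (SE 0.37, adjusted p = 0.00284 by edgeR).

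Trp53inp1, a nuclear and autophagy-linked cofactor of p53, had the widest spread of the 10. It was at 32.3, 38.9 and 51.6 CPM in controls and at 33.9, 360 and 983 CPM in model livers. Model 4 alone lay within the control range, and model 2 and model 6 were highest (983 and 937 CPM). The log2 fold change was 3.50 (SE 0.64, adjusted p = 0.000214 by edgeR), and 2.79 by limma-voom. Zmat3, a zinc finger protein that binds RNA, was at 1.80, 2.68 and 4.65 CPM in controls and at 1.86, 3.69 and 26.2 CPM in model livers. Only model 6, model 7 and model 8 (6.89, 26.2 and 22.3 CPM) were above the highest control. Its log2 fold change of 1.62 (SE 0.59, adjusted p = 0.0308 by edgeR) dropped to 0.38 without model 7 and model 8, which hold its 2 highest values. The call was lost in 13 of 23 alternative settings, among them leaving out model 7, model 8 or any 1 of controls 1 to 5 (adjusted p up to 0.081).

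Of the members tied to signalling and survival, Gdf15, a secreted stress cytokine of the TGF-beta family, rose in every model liver. Controls were at 1.45, 2.36 and 2.64 CPM (lowest, median, highest) and model livers ran from 7.77 to 182 CPM, with 78.3 and 81.6 in the middle. The lowest model values were those of model 4 and model 3 (7.77 and 18.6 CPM), still above the controls, and the log2 fold change was 5.40 (SE 0.63, adjusted p = 1.66e-06 by edgeR). Eda2r, the receptor for ectodysplasin A2 of the TNF receptor family, went from 0.296, 0.425 and 1.25 CPM to 3.81, 4.69 and 27.3 CPM. All model libraries lay above all controls, which held 3 to 13 reads each. Model 7 and model 8 were at 15.0 and 27.3 CPM and the other model libraries at 3.81 to 7.04. The log2 fold change was 3.98 (SE 0.58, adjusted p = 2.08e-05 by edgeR) and 3.15 without model 7 and model 8. These hold the 2 highest Eda2r values, and leaving them out also narrows the spread, so no p is given for that fit. Phlda3, a pleckstrin homology protein that competes with Akt for membrane lipids, went from 0.237, 0.626 and 1.03 CPM to 0.802, 2.86 and 12.6 CPM. Only model 2 was not above the highest control, and the log2 fold change was 2.80 (SE 0.59, adjusted p = 0.00076 by edgeR). It was 1.94 without model 7 and model 8, which also hold the 2 highest Phlda3 values. Phlda3 controls also rested on 3 to 13 reads.

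Sesn1, a leucine-sensing inhibitor of mTORC1, was the only one of the 10 that fell. Its lowest, median and highest values were 8.35, 10.5 and 13.1 CPM in controls and 2.69, 3.42 and 4.74 CPM in model livers. The ranges did not meet, and the spread in model livers was small. The log2 fold change was -1.61 (SE 0.20, adjusted p = 2.96e-06 by edgeR), a 3.06-fold decrease. Its 23 alternative settings all kept the call, with log2 fold changes from -1.87 to -1.51.

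Levels of different genes were compared per kilobase of exonic length (CPM per kb, lengths from GENCODE for GRCm38), as a description. In control livers Ccng1 stood first at 13.5 CPM per kb (range over libraries 10.2 to 19.4). Mdm2 (6.23, range 3.91 to 8.77) and Trp53inp1 (6.21, range 4.99 to 7.97) came next and did not differ beyond their spread. Sesn1 (2.71) and Btg2 (2.22) also overlapped each other, and Gdf15 was at 1.17 CPM per kb. Cdkn1a, Phlda3, Zmat3 and Eda2r were all under 1, from 0.402 down to 0.0987 CPM per kb. In model livers Btg2 had the highest mean, at 149 CPM per kb (range 29.1 to 274). Trp53inp1 (70.4), Cdkn1a (52.6) and Gdf15 (50.2) followed, with ranges that overlapped each other and that of Btg2. Ccng1 (21.2) and Mdm2 (17.6) came after them, then Phlda3 (2.59) and Eda2r (1.51, range 0.647 to 4.64). Sesn1 (0.885, range 0.676 to 1.19) and Zmat3 (0.763, range 0.163 to 2.29) had the lowest means, with ranges that overlapped that of Eda2r.

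The 10 genes differed in how they varied among the model livers. Over the 8 model libraries the SD of log2 CPM was 1.77 for Trp53inp1, 1.6 for Gdf15, 1.42 for Zmat3 and 0.31 for Sesn1, against a median of 0.51 over all genes. In controls it was 0.30, 0.33, 0.42 and 0.23 for the same genes, against a median of 0.46. Model 7 and model 8 held the 2 highest model values for Cdkn1a, Ccng1, Phlda3, Zmat3 and Eda2r, which is 5 of the 10 members against 21.9% of all genes. For Zmat3 the mean of these 2 libraries was 6.81 times that of the other 6, for Phlda3 4.47 times, for Eda2r 4.37 times, for Ccng1 3.52 times and for Cdkn1a 2.04 times. In the same libraries Trp53inp1 was lower than in models 1, 2, 5 and 6 (225 and 137 CPM against 494 to 983).

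Model 3 and model 4 held the 2 lowest model values for Cdkn1a, Mdm2, Btg2, Trp53inp1 and Gdf15, again 5 of 10, against 12.9% of all genes. Model 3 was among the lowest 2 model libraries for all 10 members, against 27.3% of all genes, and model 7 among the highest 2 for 7 of the 10, against 36.6%. These patterns were picked after the values were seen and were not tested. Several library measures moved with them. Model 3 and model 4 had the most counts in a small ribosomal RNA class among the model libraries (6.67% and 4.89%, others 1.38% to 2.89%). Model 7 and model 8 had the opposite end (1.5% and 1.38%). The median log2 deviation of the fifth of genes with the longest exons, minus that of the fifth with the shortest, was 1.17 in model 7 and 0.73 in model 8 and ran from -0.54 to 0.84 elsewhere in the model group. Monocyte and macrophage markers summed to 1000 and 1030 CPM in model 3 and model 4, to 640 and 671 in model 7 and model 8, and to 739 to 965 in models 1, 2, 5 and 6. Stellate cell and fibroblast markers summed to 831 and 731 CPM in model 3 and model 4, to 440 and 437 in model 7 and model 8, and to 417 to 677 in the other 4. Neutrophil markers summed to 1820 and 1670 CPM in model 3 and model 4, to 1370 and 1640 in model 7 and model 8, and to 1550 to 3040 in the other 4. Hepatocyte markers summed to 114000 and 112000 CPM in model 3 and model 4, to 122000 and 117000 in model 7 and model 8, and to 115000 to 125000 in the other 4. The part of the ribosomal RNA class and of these cells in the members' values was not tested. With an offset for exonic length, Zmat3, whose exons span 11.4 kb, had a log2 fold change of 1.15 (adjusted p = 0.0548 by edgeR) and lost its call. The other 9 members kept theirs or stayed uncalled: of those highest in model 7 and model 8, Eda2r was at 3.77, Phlda3 at 3.09, Ccng1 at 0.64 and Cdkn1a at 7.02.

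**Figure D2:**
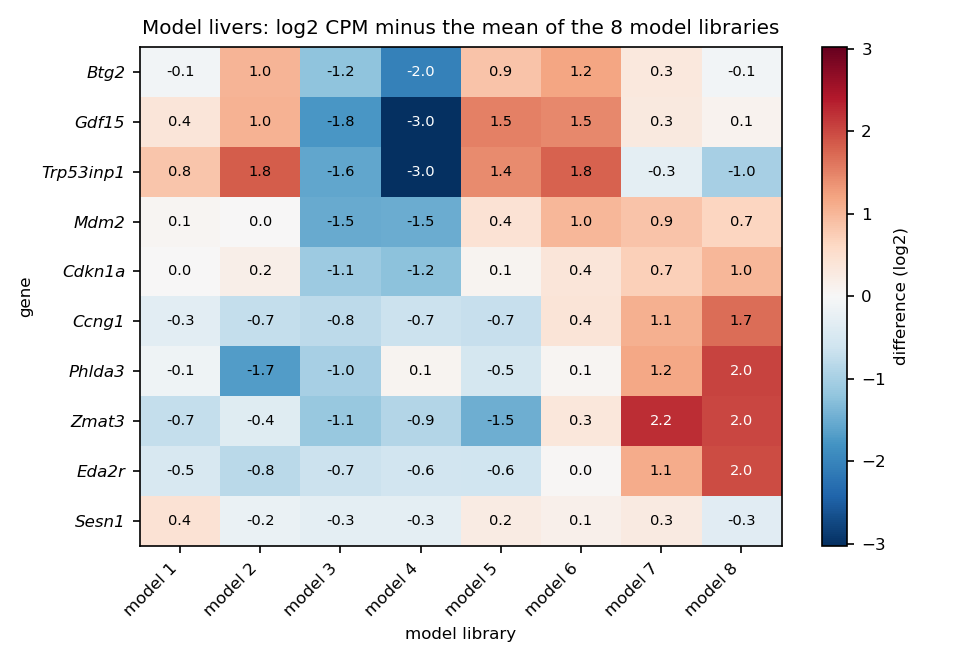
Colour and number give each gene's log2 CPM in a model library minus its mean over the 8 model libraries. Cdkn1a, Ccng1, Phlda3, Zmat3 and Eda2r are highest in model 7 and model 8, Btg2, Gdf15 and Trp53inp1 are highest in models 2, 5 and 6, and model 3 is among the lowest 2 libraries for every gene.

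Each member with a relative of its family was compared with that relative within the same library, which removes the scaling factor. These differences reuse the members' values given above and are not independent of the edgeR calls. The difference in log2 CPM was tested between groups with a two-sided exact permutation test over all 3003 assignments of the group labels, whose smallest possible p is 0.000333, with adjustment over 8 pairs. Cdkn1a rose against Cdkn1b, the p27 inhibitor, by 6.75 (exact permutation adjusted p = 0.000888), in every model library. Cdkn1b itself had a mean of 16.6 ± 1.90 CPM in control (SD, n = 6), against 18.0 ± 2.99 in model (SD, n = 8), and was not called. Btg2 rose against Btg1 by 3.58 (exact permutation adjusted p = 0.000888), although Btg1 rose too (log2 fold change 2.23, SE 0.23).

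The sestrins moved apart. Sesn2, which is also an integrated stress response gene, rose from 4.21 ± 2.81 (SD, n = 6) to 11.2 ± 3.85 CPM (SD, n = 8), a log2 fold change of 1.38 (SE 0.36, adjusted p = 0.00401 by edgeR). The difference Sesn1 minus Sesn2 was 1.55 in control and -1.59 in model, a fall by 3.13 with no overlap between the groups (exact permutation adjusted p = 0.000888). Trp53inp1 rose against Trp53inp2, an autophagy factor that fell by 1.13 on the log2 scale (SE 0.19), and the difference between them grew by 3.88 (exact permutation adjusted p = 0.002).

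The other 4 pairs did not pass. Mdm2 minus Mdm4, the p53 inhibitor that pairs with Mdm2, differed by 0.77 (exact permutation adjusted p = 0.0967). The Mdm2 pair differed by 1.2 without model 3 and model 4, which hold the 2 lowest Mdm2 values, and by 0.54 without model 7 and model 8. Ccng1 minus Ccng2 differed by -0.84 (exact permutation adjusted p = 0.0967). It was -1.31 without model 7 and model 8, which hold the 2 highest Ccng1 values, and -1.12 without model 8 alone. Leaving out libraries for such values moves these differences in a known direction, so no p is given for them. Ccng2, unlike Ccng1, was called higher by edgeR (log2 fold change 1.29, SE 0.28). Zmat3 minus Zmat2 differed by 1.36 (exact permutation adjusted p = 0.0967), by 1.64 without model 5, which holds the lowest Zmat3 value, and by 0.58 without model 7 and model 8, which hold the 2 highest. Phlda3 minus Phlda1 differed by -0.63 (exact permutation adjusted p = 0.413), and by -1.28 without model 7 and model 8. Phlda1 rose like Phlda3, by 2.89 (SE 0.36), and in GRCm38 shares 33.0% of its exonic length with Gm28592 on the other strand.

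**Figure D3:**
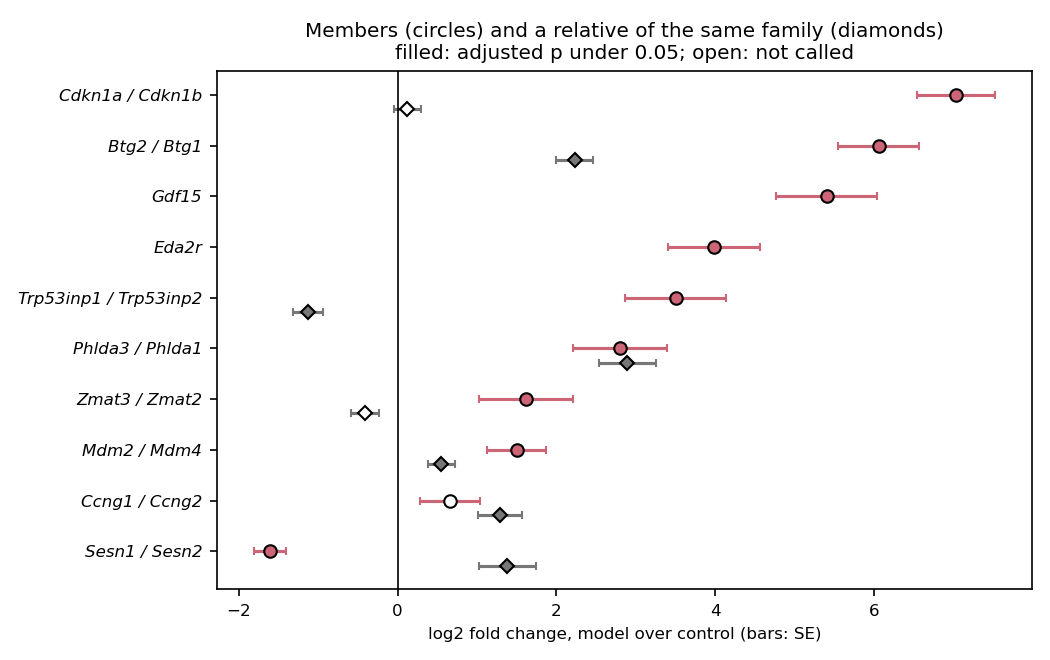
Log2 fold change, model over control, with its SE, for the 10 p53 targets (circles) and for 1 relative of 8 of them (diamonds). Sesn1 lies at -1.61 and Sesn2 at 1.38, and Trp53inp1 lies at 3.50 and Trp53inp2 at -1.13.

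The gene of p53 itself, Trp53, was higher in every model library than in any control. It went from 5.02, 7.19 and 10.8 CPM (lowest, median, highest) to 14.5, 20.8 and 55.1 CPM, with model 7 and model 8 highest at 48.8 and 55.1. The log2 fold change was 1.79 (SE 0.35, adjusted p = 0.000401 by edgeR) and 1.31 without those libraries. Of 19 tested genes of p53 and its regulators, 3 were called higher and 1 lower. These shares of 15.8% and 5.26% were below those of all genes tested (26.6% and 21.3%). The median log2 fold change of the group was 0.34. The higher ones were Trp53, the acetyltransferase Ep300 (1.06, SE 0.37) and Mdm4 (0.55, SE 0.17). Mdm4 lost its call with library totals (0.31), with upper-quartile factors (0.38), without a low-count filter (0.54), without model 2 (0.44) and with the length offset (0.14, adjusted p = 0.518). Ep300 lost its call, among other settings, with library totals, without model 2, without any 1 of controls 1, 2, 4 and 5, and without model 7 and model 8 together (adjusted p up to 0.132). The lower one was Chek2, a kinase that activates p53 after DNA breaks, which went from 2.31 ± 0.783 (SD, n = 6) to 0.453 ± 0.155 CPM (SD, n = 8; log2 fold change -2.33, SE 0.31, adjusted p = 7.92e-06 by edgeR). Without model 2 only 1 gene of this group was higher, without control 6 there were 5, and with library totals 1 was higher and 3 lower. Library totals also moved the calls over all genes, from 3437 higher and 2751 lower to 2533 and 3955.

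Beyond the 10 members, 38 of 40 other listed p53 targets were tested. Of these, 16 were higher and 3 lower (42.1% and 7.89%, against 26.6% and 21.3% of all genes tested). Their median log2 fold change was 0.42. The largest increases at a group mean of at least 1 CPM were in Tnfrsf23, Tnfrsf10b and Pmaip1. Tnfrsf23, a decoy receptor for TRAIL, went from 0.102 ± 0.0553 (SD, n = 6) to 6.53 ± 4.57 CPM (SD, n = 8; log2 fold change 5.83, SE 0.61), and in GRCm38 shares 4.1% of its exonic length with E230032D23Rik. Tnfrsf10b, the TRAIL death receptor, had means of 0.163 CPM in control and 6.08 CPM in model. Its log2 fold change was 5.08 (SE 0.75), or 4.01 without model 7 and model 8 and 5.69 without control 5. The control means of Tnfrsf23 and Tnfrsf10b were very low, so the size of their increases is uncertain. Pmaip1 (Noxa), a BH3-only protein, went from 0.464 ± 0.243 (SD, n = 6) to 15.1 ± 4.10 CPM (SD, n = 8; 4.95, SE 0.33).

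The 3 listed targets that fell were Pank1, a pantothenate kinase of coenzyme A synthesis (log2 fold change -2.16, SE 0.21), Bbc3 (Puma), another BH3-only protein (-1.41, SE 0.27), and Trp53inp2. Trp53inp2 also serves above as the relative of Trp53inp1 and counts in both lists. Its place among p53 targets rests on the list alone. Pmaip1 and Bbc3 thus moved in opposite directions, each with ranges that did not overlap between the groups. The count of lower targets was 7 with library totals or upper-quartile factors and 6 with DESeq2 or the length offset. Lower calls over all genes tested rose too, from 2751 to 3955 with library totals, 3514 with upper-quartile factors and 3155 with DESeq2. The count of lower targets was 5 without model 5, without control 6 or without model 7 and model 8. For 13 of the 38 targets (34.2%, against 21.9% of all genes), model 7 and model 8 held the 2 highest model values. Tnfrsf10b and Apaf1 were among these targets, names chosen after their values were seen.

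**Figure D4:**
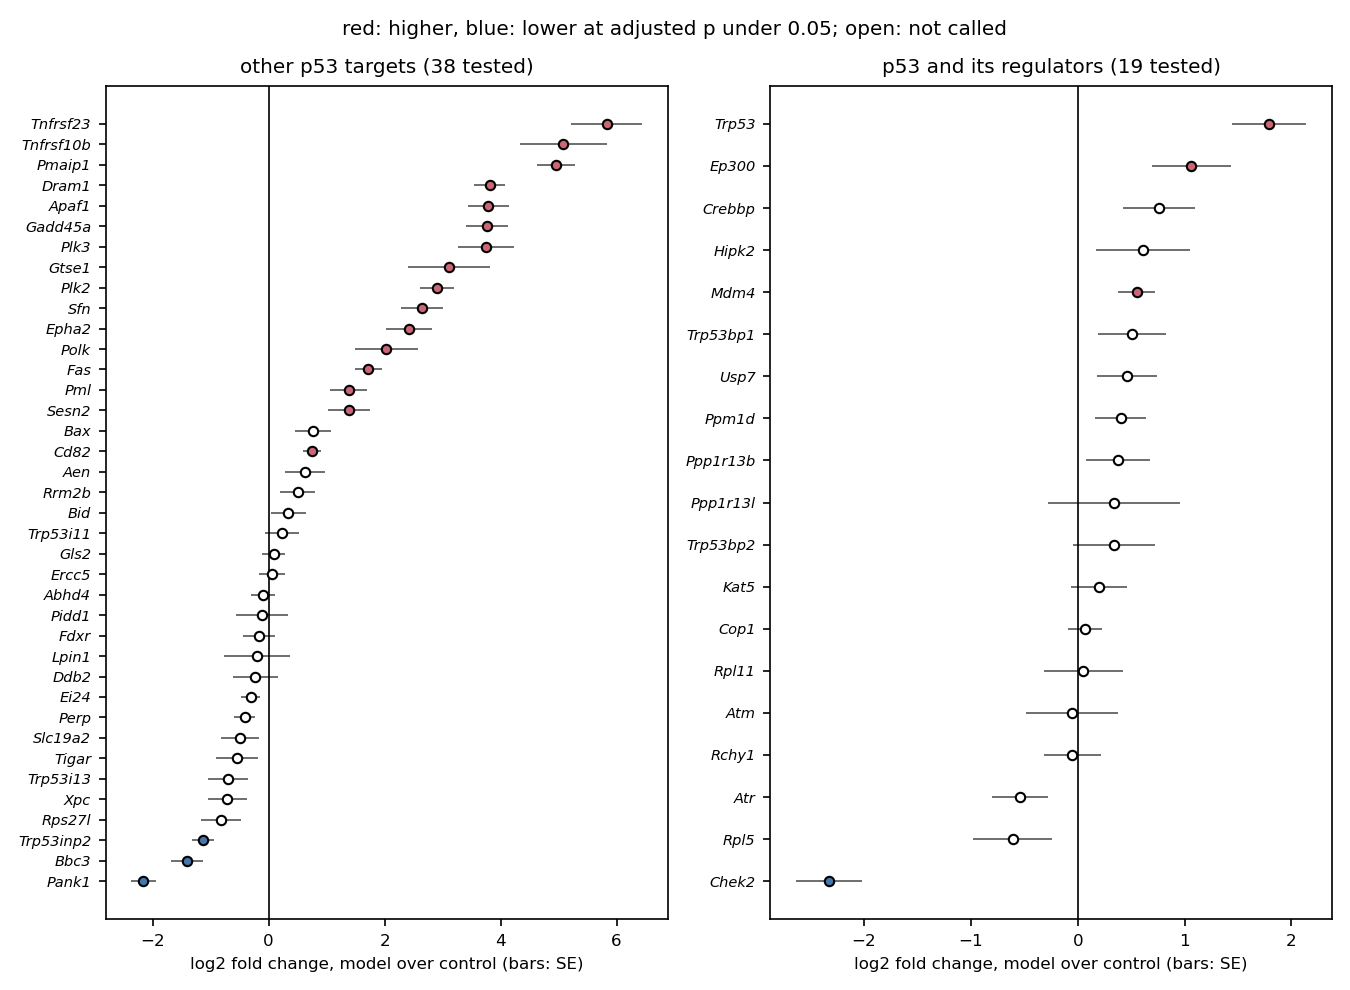
Log2 fold change, model over control, with its SE, for 38 other p53 targets (left) and 19 genes of p53 and its regulators (right). On the left 16 genes are higher (red) and 3 lower (blue), with Tnfrsf23 at 5.83 and Pank1 at -2.16, and on the right Trp53 is highest at 1.79 and Chek2 lowest at -2.33.

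Cell cycle genes that p21 is known to hold down were measured at low levels beside the rise of Cdkn1a. Of 21 tested, 8 were higher and 2 lower (38.1% and 9.52%, against 26.6% and 21.3% of all genes tested). The median log2 fold change was 0.35. With library totals 5 were higher, while higher calls over all genes fell from 3437 to 2533. Bub1b, a spindle checkpoint kinase, was at 0.346 ± 0.0867 CPM in control (SD, n = 6) and 1.80 ± 1.04 in model (SD, n = 8; log2 fold change 2.33, SE 0.45). E2f2, an S phase transcription factor (2.11, SE 0.34), and Mki67, the proliferation marker (2.10, SE 0.51, or 2.74 without control 6), rose as well, while Rrm2 (-0.99, SE 0.27), a subunit of ribonucleotide reductase, and Cdk2 (-0.78, SE 0.22) fell. A further 8 of the 29 listed genes had too few counts to be tested. Markers of neutrophils and monocytes were higher in these livers too, and which cells held the transcripts was not measured.

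Integrated stress response genes, some of whose factors are also known to raise Gdf15, were higher in 12 of 20 cases and lower in 1. These shares were 60% and 5%, against 26.6% and 21.3% of all genes tested, and the median log2 fold change was 1.93. Atf3, a stress-induced transcription factor, rose by 7.84 (SE 0.44), and Nupr1 by 3.63 (SE 0.24). Slc7a11, the cystine transporter, had 0 counts in every control and was at least 474-fold higher, against a floor of 3 counts over the controls. Atf4, the central factor of this response, had means of 164 ± 58.7 CPM in control (SD, n = 6) against 226 ± 74.5 in model (SD, n = 8) and was not called (adjusted p = 0.167 by edgeR). Fgf21, a liver hormone, fell by 2.69 on the log2 scale (SE 0.57), and by 3.38 without model 5.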

How the data were processed

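Polyadenylated liver RNA of 14 samples was sequenced on an Illumina instrument, per the labels' protocols. The authors deposited unnormalized counts of reads for each gene in 1 file per sample. HISAT2 and the build GRCm39 are named in the submitters' processing notes. How the reads were counted (program, strand setting, annotation) is not given in the sources used here. The 5 summary lines of each file, 27.4% to 45.6% of a library's entries, name no gene and were left out. Replicate libraries differed by more than sampling noise (43 pairs, smallest chi-square per degree of freedom 23.3).

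Genes were filtered with filterByExpr and tested with edgeR 4.0.16 in R 4.3.3 (TMM factors, robust quasi-likelihood fit, group as the only term, Benjamini-Hochberg adjustment over 12915 genes, calls at adjusted p under 0.05). Each SE was taken as the absolute log2 fold change over the square root of F. CPM used TMM factors, and log2 CPM a prior count of 2. The members and gene lists were chosen with earlier results of these data known. Named genes are the members, Trp53, Mdm4, the relatives, and up to 3 called genes per direction of each list at a group mean of at least 1 CPM. Others are marked as chosen later or are given for context (Atf4, Sesn3, Tob1, Tob2, Eda), and Ly6g and Edar as genes with no count in controls. Alternatives were library totals, upper-quartile factors, DESeq2 1.42.0, limma-voom (limma 3.58.1), no low-count filter, a replicate block, a per-library lowess offset on exonic length (matched for 99.9% of tested genes), and fits without single libraries or without 2 chosen pairs of model libraries. On simulated counts of model against control (12915 genes, 50 changed at each size), edgeR recovered 0% of changes of 1.5-fold, 48% of 2-fold, 88% of 4-fold and 94% of 8-fold, and 4.17% of its calls were false. Far fewer genes changed there than the 47.9% called in the data. The adjustment was therefore stricter in the simulation, and its percentages do not carry over directly.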

Additional observations from a re-analysis of the deposited data

Results flagged for a closer look

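The values of the 10 genes were screened for a single library far from the rest of its group, in 20 groups of libraries. Chance flags about 1 in 20 of the control groups, and fewer of the model groups, where the cutoff was stricter. In total 3 stood out, each in a control. Control 5 was highest for Cdkn1a, at 3.13 CPM against 1.54 CPM in the next control, and for Btg2, at 9.39 CPM against 6.13 CPM. Control 6 was highest for Zmat3, at 4.65 CPM against 2.76 CPM, and it also had the strongest excess of long genes among the controls (0.90 on the log2 scale, others -1.09 to 0.33). The part of that excess in the Zmat3 value was not tested.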

How the results depend on the processing

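Over 23 alternatives, 6 to 8 of the 10 genes were called higher and 1 lower. Cdkn1a, Btg2, Gdf15, Eda2r, Trp53inp1, Phlda3 and Sesn1 kept their direction and call in all 23, and Mdm2 in 22. The numbers in the titles did not pair the samples (correlations of deviations from -0.34 to 0.36 over 6 numbers, 1 model library best matched by its own number). With the replicate block, 6 members were higher and 1 lower, 2985 genes were higher and 2390 lower, Mdm2 was at 1.06 (adjusted p = 0.0747) and Ccng1 turned to -0.10. Model 7 and model 8 have no partner in that fit, and 6 of the other p53 targets were then lower. The block also ended the calls of Zmat3 (0.26, adjusted p = 0.45), Ep300 (1.00, adjusted p = 0.0672), Gdf10 (-1.19, adjusted p = 0.0835) and Sesn3 (-0.61, adjusted p = 0.118). Cdkn1b turned to -0.12 with library totals and to -0.03 with upper-quartile factors. Library totals moved the median of all genes to -0.23 and upper-quartile factors to -0.14. Calls over all genes went from 3437 higher and 2751 lower to 2533 and 3955 with library totals, 2992 and 3514 with upper-quartile factors and 4427 and 2931 without a low-count filter. Mdm2 minus Mdm4 was 1.2 without model 3 and model 4, and Ccng1 minus Ccng2 was -1.31 without model 7 and model 8. With 1 library left out, these differences ranged from 0.65 to 0.96 and from -1.12 to -0.64, and Zmat3 minus Zmat2 from 1.00 to 1.64. The cause of these shifts was not tested. Depth limits Eda2r and Phlda3 in controls, at 3 to 13 reads.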

Other observations

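Further relatives of the members moved in both directions. Of 16 tested, 6 were higher and 4 lower (37.5% and 25%, against 26.6% and 21.3% of all genes tested). Without model 7 and model 8, 2 were lower. Btg3, of the same antiproliferative family as Btg2, went from 4.64 ± 1.54 (SD, n = 6) to 25.1 ± 18.6 CPM (SD, n = 8), a log2 fold change of 2.45 (SE 0.45), or 1.84 without model 7 and model 8. In GRCm38 it shares 17.3% of its exonic length with Cxadr on the other strand. The family members Tob1 (58.3 ± 18.9 CPM in control, SD, n = 6, against 57.4 ± 28.8 in model, SD, n = 8) and Tob2 (log2 fold change -0.44, SE 0.24) were not called. Cdkn1c, the p57 inhibitor, was lower (-1.31, SE 0.38, at 1.46 ± 0.242 CPM in control, SD, n = 6), as was Gdf10 (-1.31, SE 0.43), whose call was lost, replicate block aside, without control 6 (adjusted p = 0.0639 by edgeR) and without model 7 and model 8 (adjusted p = 0.0627 by edgeR). Sesn3 was lower by edgeR (-0.72, SE 0.28, adjusted p = 0.0411), a call that was lost without any 1 of models 1, 3, 5, 6, 7 and 8 or controls 3, 4 and 6 (adjusted p up to 0.124) and, replicate block aside, without a low-count filter (adjusted p = 0.0536), without model 3 and model 4 (adjusted p = 0.0654) and without model 7 and model 8 (adjusted p = 0.175), so that of the 3 sestrins Sesn2 alone rose. Eda, the gene of the ectodysplasin ligands, had too few counts to be tested, with a mean of 0.823 ± 0.298 CPM in control (SD, n = 6) against 0.269 ± 0.241 in model (SD, n = 8), beside the increase of its receptor gene Eda2r. Its relative Edar was at 0 counts in all 14 libraries.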
